A study of Arabidopsis thaliana with 6 samples.

Results

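Of the core autophagy genes other than the ATG8 family, 1 could be followed by gene symbol on this array: ATG3 (AT5G61500). Members were to be the probe sets that name a single gene whose annotated symbol is ATG and a number, with every ATG8 symbol left out and the brightest probe set kept for each gene. The annotation gave 8 such symbols, 7 of them ATG8, so ATG3 remained, as 1 of 13356 genes with a probe set of their own, and 1 probe set measures it. Further core autophagy genes have a locus number in place of a symbol there. They are given below as the setting of ATG3, from a list of 33 loci written down from general knowledge.

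The plants were Arabidopsis thaliana, either Col-0 (wild type) or sid2.2, a mutant of ICS1, the isochorismate synthase of salicylic acid synthesis. All were kept on low sulfate (0.016 mM) for 60 days, in short days of 8 h light (160 µmol per m2 per s) and 16 h dark, so no group had ample sulfate. Each of 3 cultures, grown months apart, gave 1 pool of rosettes per genotype, from more than 6 plants each, and each pool was hybridised to 1 array. The replicate number of an array is that of its culture, so the arrays numbered 2 share culture 2. The comparison asks how the mutated ICS1 route changes the rosette transcriptome under these conditions.

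Autophagy encloses cytoplasm, organelles or protein aggregates in a double membrane and carries them to the vacuole, where they are broken down and their nutrients are released. ATG3 acts at the step that builds this membrane. It is a conjugating enzyme of the ubiquitin type, which takes the small protein ATG8 from the activating enzyme ATG7 and joins it to the lipid phosphatidylethanolamine, so that ATG8 becomes anchored in the growing membrane. In leaves autophagy is known for recycling nitrogen and sulfur during ageing and starvation, and Arabidopsis autophagy mutants are known for early ageing that depends on salicylic acid.

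Values are linear signal intensities with no unit, which can be compared between arrays for 1 probe set but not between probe sets. Median intensity was between 130.73 and 162.26 over the 6 arrays. The arrays did not group by genotype. Over the 13647 probe sets tested, Col-0 replicate 3 and sid2.2 replicate 2 differed from each other by a median of 0.23 on the log2 scale, the smallest value of any pair of arrays. Col-0 replicate 3 stood apart from the other Col-0 arrays, at 0.43 from each, where those 2 differed by 0.30. It was nearer to every sid2.2 array, at 0.29, 0.23 and 0.38 from replicates 1, 2 and 3. Among the sid2.2 arrays, replicates 1 and 2 differed by 0.30, replicates 1 and 3 by 0.29 and replicates 2 and 3 by 0.40. No probe set named ICS1 could check the genotype labels, and that gene was not analysed here. The leaf gene RCA, the activase of Rubisco, was above the limit of 79.7 used for low signal on all 6 arrays, with 11743 to 24339. PYK10, a root glucosidase, lay on both sides of it, with 32.0 to 232.

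ATG3 had a signal of 1065 in Col-0 replicate 1, 1103 in replicate 2 and 1934 in replicate 3 (mean 1367 ± 491, SD, n = 3). The mutant pools gave 1413, 1716 and 1076 in replicates 1, 2 and 3 (mean 1402 ± 320, SD, n = 3). The ranges of the genotypes overlapped over their whole width: the highest and the lowest of the 6 values were both from Col-0. The gene was high on Col-0 replicate 3 and sid2.2 replicate 2, the most alike pair of arrays, intermediate on sid2.2 replicate 1, and low on the other 3 arrays.

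**Figure D1:**
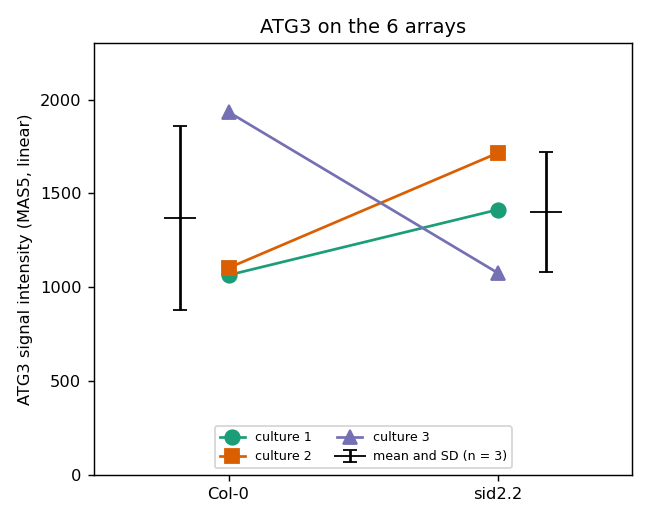
ATG3 signal intensity (linear, vertical axis) in Col-0 and sid2.2, with 1 point per array, a line joining the 2 arrays of a culture, and the mean ± SD of each genotype (n = 3) beside the points. The lines of cultures 1 and 2 go up from Col-0 to sid2.2 (from 1065 to 1413 and from 1103 to 1716) and that of culture 3 goes down, from 1934 to 1076.

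ATG3 did not pass the test between genotypes. Its log2 difference, sid2.2 minus Col-0, was 0.067 (SE 0.29; limma adjusted p = 0.965 over 13647 probe sets), or 1.05-fold. The 95% interval of the difference ran from -0.60 to 0.73, that is from 0.659-fold to 1.66-fold. With 3 arrays per genotype, the data are compatible with any difference within these bounds, 0 among them. The interval is not adjusted for the number of probe sets tested, so its bounds are not the smallest differences that would be called. At an adjusted p under 0.05 limma called 0.0220% of all probe sets tested, 3 in number. A larger absolute difference than that of ATG3 was found for 84.4% of the probe sets tested, while the median difference over all of them was -0.0051.

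The cultures went in opposite directions for ATG3. Within culture 1 the log2 difference was 0.41, within culture 2 it was 0.64, and within culture 3 it was -0.85. The medians over all probe sets tested were 0.11, 0.0018 and -0.066 in the same cultures. The culture term was not called for ATG3 beside genotype (limma F test, adjusted p = 0.9999). Limma called 0 of 13647 probe sets for culture. At an unadjusted p under 0.05 there were 29, far fewer than this threshold gives where no effect exists. Relative to their genotype means, the 2 arrays of cultures 1, 2 and 3 correlated over probe sets at -0.035, -0.53 and -0.55. As paired arrays did not deviate together, the test could not show that culture had no effect.

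The sign of the ATG3 difference turned when some arrays were left out. Without Col-0 replicate 3 the difference was 0.35 (95% interval -0.23 to 0.92; limma adjusted p = 0.507). Without sid2.2 replicate 2 it was -0.092 (adjusted p = 0.998), and without both of these arrays it was 0.19 (95% interval -0.36 to 0.73; adjusted p = 0.787). The largest value, 0.52, came from leaving out culture 3 (95% interval -0.047 to 1.09; adjusted p = 0.264), and the lowest, -0.22, from leaving out culture 2 (adjusted p = 0.999). It was also below 0 without Col-0 replicate 1 (-0.085), without Col-0 replicate 2 (-0.060), without culture 1 (-0.10) and with each array centred on its median (-0.013). ATG3 was called under none of the 17 alternatives, and the interval held 0 under each.

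**Figure D2:**
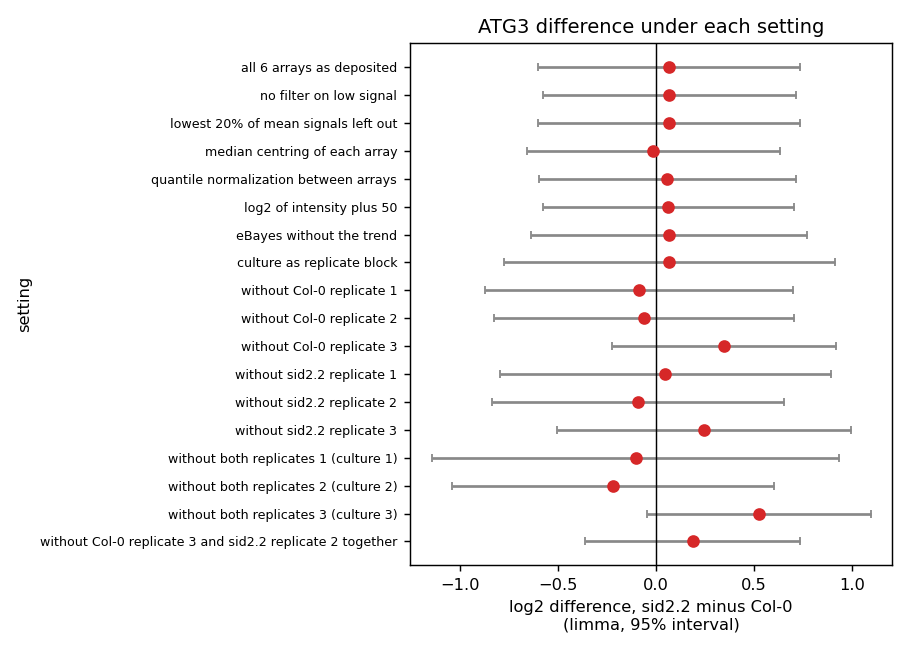
Log2 difference of ATG3, sid2.2 minus Col-0 (horizontal axis), with its 95% interval from limma, for all 6 arrays and for each alternative (vertical axis). Points lie on both sides of 0, from -0.22 without culture 2 to 0.52 without culture 3, and every interval crosses 0.

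ATG3 varied between arrays of 1 genotype by more than it did between genotypes. Its log2 signal had an SD of 0.48 in Col-0 and of 0.34 in the mutant, and its residual SD of 0.42 compares with a median of 0.33 over the probe sets tested, of which 33.3% had a larger one. From the lowest to the highest array the signal spanned 0.86 on the log2 scale, or 1.82-fold. That span is close to the median over all probe sets tested, 0.91, and 54.2% had a wider one. In the order of the levels, Col-0 replicate 3 was followed by sid2.2 replicate 2 (a step of 0.17 on the log2 scale), sid2.2 replicate 1 (0.28), Col-0 replicate 2 (0.36), sid2.2 replicate 3 (0.036) and Col-0 replicate 1 (0.016). With 1 array per pool, the steps between neighbours have no error of their own.

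Of the 32 other core autophagy loci on the list, 10 had a named probe set and 9 of these passed the filter on low signal. None of the 9 was called by limma (smallest adjusted p = 0.545). An unadjusted p under 0.05 was found for 1 of the 9, and for 7.40% of all probe sets tested. Of the log2 differences 6 were above 0 and 3 below, between -0.26 and 0.87, with a median of 0.25, where 49.4% of all probe sets tested lay above 0. Within cultures 1, 2 and 3 the median of these loci was 0.44, 0.55 and -0.69, in the same directions as ATG3. In cultures 2 and 3 these directions are fixed for a gene highest on Col-0 replicate 3 and sid2.2 replicate 2. ATG3 and 7 of the 9 loci had that ordering, so the shared directions are no separate likeness. The median of the 9 differences was 0.25 with all 6 arrays, -0.098 without culture 2 and 0.047 without sid2.2 replicate 2. It was 0.43 without Col-0 replicate 3 and 0.32 without both of those arrays.

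The 3 loci with the highest mean signal are given in full. AT3G61960 had 392, 526 and 758 in Col-0 against 600, 1076 and 586 in sid2.2 (log2 difference 0.42, SE 0.33, limma adjusted p = 0.811). Its highest array was sid2.2 replicate 2 and its next Col-0 replicate 3. AT5G66930, which has no ATG symbol in the annotation but has ATG101 as a synonym in the RefSeq table, encodes a partner of ATG13 in the kinase complex that starts autophagosome formation. It had 444, 324 and 584 in Col-0 against 512, 660 and 330 (0.14, SE 0.32, adjusted p = 0.933). AT5G50230 had 381, 431 and 516 in Col-0 against 516, 479 and 280 (-0.097, SE 0.29, adjusted p = 0.947). In AT5G50230 the highest values were nearly equal on Col-0 replicate 3 and sid2.2 replicate 1. All 3 loci overlapped between the genotypes.

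**Figure D3:**
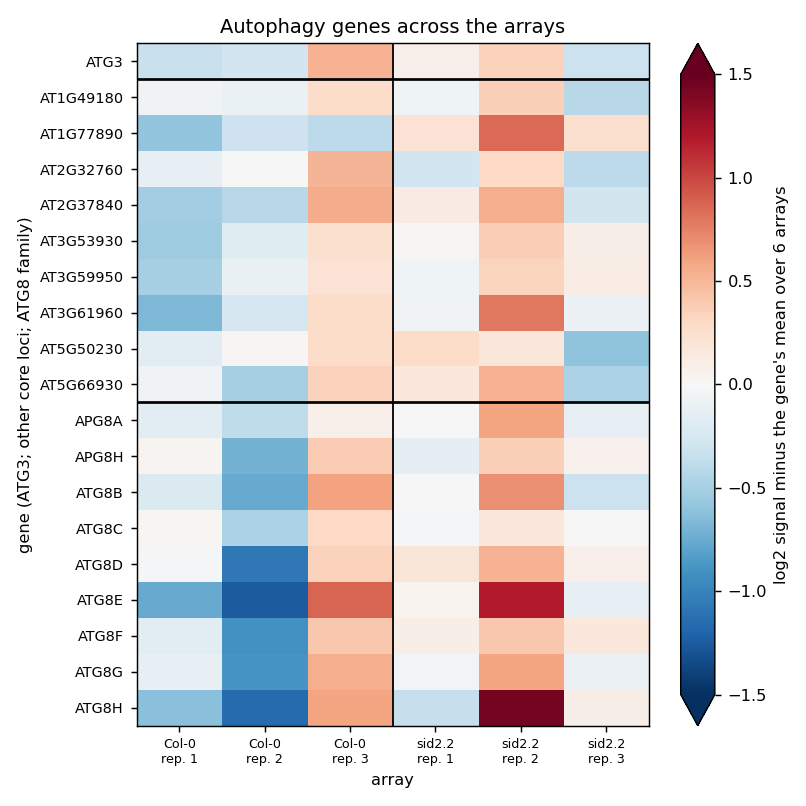
Log2 signal of each gene minus its own mean over the 6 arrays (colour, red above and blue below the mean, with values past 1.5 shown in the end colours), for ATG3, the 9 other core loci past the low-signal filter and the 9 ATG8 genes (rows) on the 6 arrays (columns). The columns of Col-0 replicate 3 and sid2.2 replicate 2 are red in nearly all rows, and AT1G77890 is the row in which Col-0 replicate 3 is blue.

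AT1G77890 is named because its values were seen to differ between the genotypes, though limma did not call it. It had 89.0, 109 and 103 in Col-0 against 156, 242 and 159 in the mutant, so that the genotypes did not overlap. The log2 difference was 0.87 (SE 0.28; limma adjusted p = 0.545) and lay at 0.81, 1.16 and 0.63 within the cultures. It was the 1 locus of the 9 without overlap, a share near the 12.0% of all probe sets tested that had none. A second probe set of this gene, 262182_at, had signals of 6.53 to 35.6, below the limit of 79.7 used for low signal, and did not show the pattern: its lowest value was on sid2.2 replicate 2.

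ATG8, the protein that ATG3 attaches to lipid, is encoded by 9 genes, all measured and past the filter. All 9 log2 differences were above 0 (median 0.31, range 0.095 to 0.79). Limma called 0 of them, with 0 at an unadjusted p under 0.05, where 7.40% of all probe sets tested were. Without Col-0 replicate 2 alone the median was 0.092, with 5 above 0 and 4 below, and without sid2.2 replicate 2 alone it was 0.093, with 8 above and 1 below. Without culture 2, which holds both, it was -0.11, with all 9 below 0. The median was larger, with all 9 above 0, without Col-0 replicate 3 (0.66), without culture 1 (0.42) and without culture 3 (0.78). Leaving out both Col-0 replicate 3 and sid2.2 replicate 2 gave 0.44, again with all 9 above 0. The brightest were ATG8F (0.44, SE 0.31), APG8H (0.19, SE 0.29) and ATG8C (0.095, SE 0.23), with limma adjusted p values of 0.791, 0.896 and 0.936. APG8H is AT3G15580, a different gene from ATG8H, which is AT3G06420.

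The spans of the ATG8 genes between arrays ran from below that of ATG3 to far above it. ATG8H spanned 2.59 and ATG8E 2.43 on the log2 scale from the lowest to the highest array, and ATG8C 0.78, against 0.86 for ATG3. All 9 ATG8 genes had their lowest signal on Col-0 replicate 2, where ATG3 had 1103, close to its 1065 on Col-0 replicate 1. The share of all probe sets tested that were lowest on Col-0 replicate 2 was not counted, so this ordering may not be particular to the ATG8 genes. Median log2 signals relative to each gene's mean were -0.88 on Col-0 replicate 2 and -0.16 on Col-0 replicate 1 for the ATG8 genes, and -0.29 and -0.34 for ATG3. The difference between ATG3 and the ATG8 genes was not tested.

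**Figure D4:**
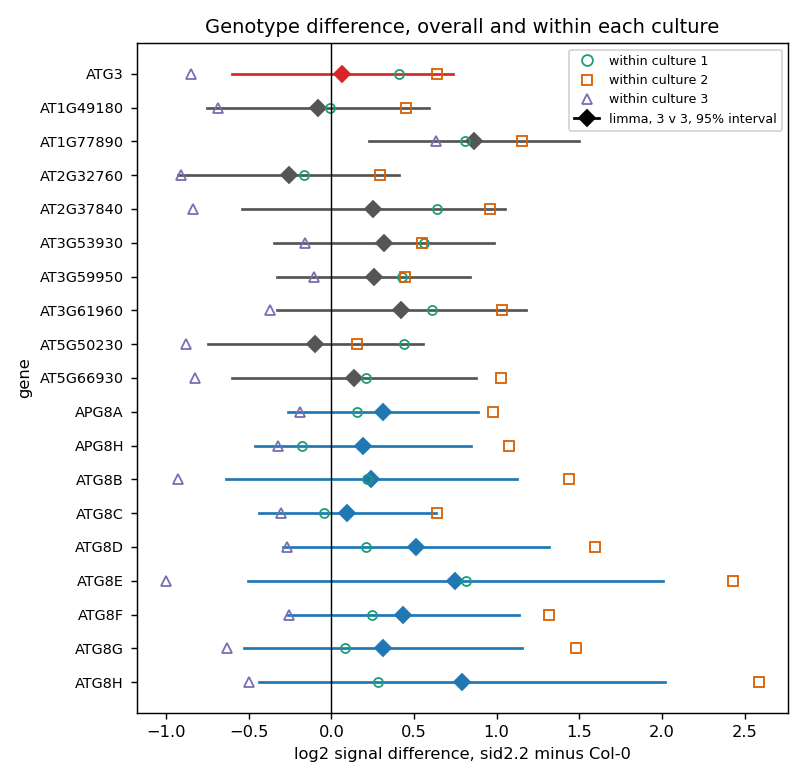
Log2 difference, sid2.2 minus Col-0 (horizontal axis), for ATG3 (red), 9 other core loci (grey) and 9 ATG8 genes (blue): the filled diamond is the limma estimate with its 95% interval, and open symbols are the differences within each culture. For ATG3 the symbols lie at 0.41, 0.64 and -0.85, and AT1G77890 is the row with all 3 open symbols and the interval above 0.

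Col-0 replicate 3 and sid2.2 replicate 2 were the 2 highest arrays for ATG3, for 7 of the 9 other core loci (not AT1G77890 and AT5G50230) and for all 9 ATG8 genes. The same was true of 18.2% of all probe sets tested, 2487 in number. This ordering was picked out after the values had been seen. No autophagy gene of these lists had the 2 arrays as its lowest.

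Leaf genes of photosynthesis had the opposite ordering. Of the 5 listed leaf markers 4 had a named probe set, and in all 4 the 2 lowest arrays were Col-0 replicate 3 and sid2.2 replicate 2, as in 16.0% of all probe sets tested. PRK, a kinase of the Calvin cycle, had 7071, 13492 and 5410 in Col-0 against 8804, 5038 and 9254 in sid2.2. SBPASE, a phosphatase of the same cycle, had 9453, 12968 and 6210 against 7688, 5049 and 9176. The summed signal of the 4 markers ranged from 37634 to 69150 in Col-0 and from 41149 to 67114 in sid2.2, and no marker was at 0. The 1 root marker, PYK10, was also lowest on these arrays, at 44.4 and 32.0. In whole rosettes fewer cells of a type and less RNA per cell cannot be told apart, and the part of these differences in the ATG3 values was not tested.

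**Figure D5:**
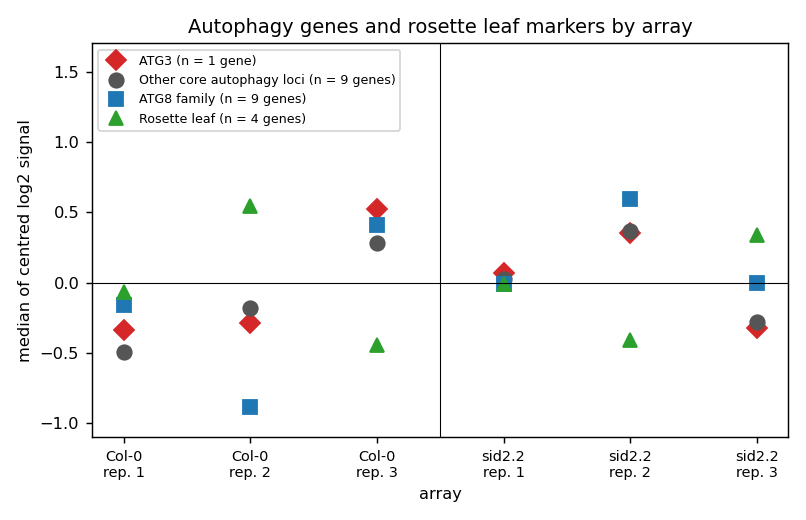
Median log2 signal relative to each gene's own mean over the 6 arrays (vertical axis), on each array (horizontal axis), for ATG3 (1 gene), the other core loci (9), the ATG8 family (9) and the rosette leaf markers (4). On Col-0 replicate 3 ATG3 is at 0.52 and the leaf markers at -0.44, and on sid2.2 replicate 2 they are at 0.35 and -0.41.

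A measure of RNA quality differed between the genotypes. The ratio of 3' to 5' signal of actin, which grows as targets get shorter, was 5.34, 6.51 and 8.34 on the mutant arrays against 4.91, 4.85 and 4.81 on those of Col-0. ATG3 was at 1413, 1716 and 1076 on the former and at 1065, 1103 and 1934 on the latter. The actin ratios of the genotypes did not overlap, so ratio and genotype cannot be told apart on these arrays. For GAPDH the ratio was 2.33 to 2.81 in Col-0 against 2.93 to 3.87 in sid2.2 with 1 pair of probe sets, and overlapped with the other, at 1.07 to 1.30 against 1.16 to 1.26. The part of RNA quality in the genotype difference of ATG3 was not tested.

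Few of the listed upstream and downstream genes of the pathway had a named probe set, and others may be among the unnamed ones. RAPTOR1, a partner of the TOR kinase that holds autophagy back when nutrients are plentiful, had 65.2, 94.9 and 115 in Col-0 against 137, 121 and 129 in sid2.2 (log2 difference 0.53, SE 0.30, limma adjusted p = 0.750). Its groups did not overlap, as for 12.0% of all probe sets tested. RAPTOR2, with 26.0 to 92.8, had a mean under the low-signal limit. The list of 10 genes of TOR and SnRK1 control had no other member with a named probe set. AT4G34660 was the 1 locus with a named probe set among 12 listed as cargo receptors and partners. It had 207, 233 and 185 against 290, 230 and 233 (0.27, SE 0.23, limma adjusted p = 0.830).

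Among 7 listed vacuolar proteases 3 had a named probe set and 2 passed the filter, and neither was called. GAMMA-VPE, a vacuolar processing enzyme, had 12813, 6796 and 21830 in Col-0 against 17551, 21582 and 16413 in sid2.2 (log2 difference 0.57, SE 0.37, limma adjusted p = 0.775). AT4G01610 had 4664, 2832 and 7237 against 5324, 7094 and 4771 (0.30, SE 0.33, adjusted p = 0.851). Both were highest on Col-0 replicate 3 and sid2.2 replicate 2, like ATG3, and lowest on Col-0 replicate 2, like the ATG8 genes. ALPHA-VPE had 6.97 to 45.8, under the low-signal limit.

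The genes with the array pattern most like that of ATG3 were sought among 7377 other single-gene probe sets past the filter, ATG8 genes left out. Likeness was the root mean square difference over the 6 arrays between log2 signals, each relative to the gene's own mean. The closest were AT4G10050 (0.043), AT5G58200 (0.049), MYC3 (0.063), AT2G17990 (0.064) and AT1G17145 (0.068). MYC3 is a transcription factor of jasmonate signalling. AT4G10050 had 582, 573 and 966 in Col-0 against 737, 888 and 580 in sid2.2, with the same 2 highest arrays as ATG3. Among the autophagy genes the closest was AT2G37840 (0.12), with 219, 236 and 463 against 342, 458 and 259. A second probe set of this gene, 266081_at, had 33.8 to 62.3, below the low-signal limit. It did not show the pattern: its lowest value was on sid2.2 replicate 2. The ATG8 genes lay between 0.24 for APG8A and 0.63 for ATG8H. These 6 arrays share 3 cultures, and the values describe likeness only.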

How the data were processed

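The authors deposited 1 table of linear signal intensity for 22810 probe sets on 6 arrays, which the submitters' processing notes credit to MAS5. The version of MAS5 is not given in the sources used here. Each target came from 200 ng total RNA, per the labels. The 2% trimmed mean was 500.046 to 500.055 on all arrays, so they appear scaled to 1 target, which removes any change in total signal. MAS5 subtracts background within each array, so dim values are noisy on a log scale. For arrays their number limits the precision.

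Intensities were log2 transformed. Left out were the 64 controls and, by mean over the arrays, the dimmest 40% of probe sets. The 13647 others were fitted with limma 3.58.1 in R 4.3.3 (genotype term, eBayes with an intensity trend of the variance, two-sided tests, 95% intervals). A call needed a Benjamini-Hochberg adjusted p below 0.05. The fit was run on simulated data as a check of the code. These data had independent noise on each array, so the check does not bear on arrays that vary together. Of the probe sets, 13513 had 1 gene name, 503 several and 8794 none; 13436 of the first were matched by gene identifier to a RefSeq table (assembly TAIR10.1).

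Named were the members, the 3 brightest measured genes of each list, the 5 genes most like the members, and others where the text says so. Members and lists were chosen with earlier results of these data known. Culture numbers pair the arrays, since the labels say each is a shared culture. As a check, the 2 arrays of cultures 1, 2 and 3, each taken relative to its genotype mean, correlated over probe sets at -0.035, -0.53 and -0.55. None of these was positive, so the check did not bear out the pairing, which rests on the labels alone. The within-culture differences rest on it too. Culture was an alternative block.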

Additional observations from a re-analysis of the deposited data

How the results depend on the processing

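ATG3 was called under none of 17 alternatives (limma adjusted p from 0.264 to 0.999), and its log2 difference of 0.067 kept its sign under 11 and turned under 6. It was -0.013 with median centring, ran from -0.092 (without sid2.2 replicate 2) to 0.35 (without Col-0 replicate 3) with 1 array left out, and was -0.10, -0.22 and 0.52 without cultures 1, 2 and 3. With culture as a replicate block it was again 0.067 (adjusted p = 0.998), and the block changed no call of ATG3. As ATG3 has 1 probe set, choosing another could not be run, and a median over members is its own value. The count of 3 called probe sets (2 higher, 1 lower) was 0 without the low-signal filter (1555 at an unadjusted p under 0.05) and 0 with the block (550). It was 1 with quantile normalization (0 higher, 1 lower), 1 without the variance trend, 5 with 50 added to each intensity, and 2 with median centring (1 higher, 1 lower). With arrays or cultures left out it ran from 0 to 728: 302 without Col-0 replicate 3, 728 without culture 3, and 0 otherwise. Leaving out both Col-0 replicate 3 and replicate 2 of sid2.2 gave 235. Alternatives for the other core loci and the ATG8 genes beyond the filter, and those for the culture test, were added after seeing the data. Their medians ran from -0.098 to 0.56 and from -0.11 to 0.78, below 0 in 1 of 17 alternatives each, without culture 2. The culture test called ATG3 in 0 of 3 alternatives. The cause of these differences was not tested. With 3 arrays per genotype the 95% interval of the ATG3 difference was 0.659-fold to 1.66-fold.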
